A study of Mus musculus with 12 samples.

Results

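Kinesins are motor proteins that hydrolyse ATP to move along microtubules or to take them apart. Mitotic kinesins separate spindle poles, move chromosomes, shorten microtubule ends and build the midzone where a dividing cell is cleaved, and they are made mainly by cycling cells, in which many of their transcripts accumulate as division approaches. Transport kinesins instead carry vesicles, mitochondria, endosomes and ciliary cargo through the cytoplasm, and several of them were first described in neurons. Embryonic stem cells divide rapidly, whereas cardiomyocytes withdraw from the cell cycle and fill with sarcomeres and mitochondria, so the family was followed from the stem cell to the cardiomyocyte.

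The family was found by name, as every gene whose array symbol is Kif followed by a number, with or without a letter, or begins with Kifc. This gave 41 genes of the 18193 that at least 1 probe set names alone, namely 14 mitotic kinesins, 17 transport kinesins and 10 others with ciliary, signalling, mixed or little-studied roles. Where several probe sets named a gene alone, the one with the highest mean over the 12 arrays stood for it, which was a choice among several for 26 genes, whereas 15 genes had a single probe set. Tests were run on 34 of the 41 genes, those whose probe set lay above the median signal of its array on at least 3 arrays, among 13145 genes tested in all. These were 10 mitotic, 17 transport and 7 other kinesins. Kif2b, Kif14, Kif15 and Kifc5b of the mitotic list and Kif26a, Kif27 and Kif28 of the others were too dim, and are given below by their signals alone.

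RNA came from the CGR8 mouse embryonic stem cell line, grown without feeder cells, at 4 stages with 3 arrays each. ES-LIF(+) cells were kept with leukemia inhibitory factor (LIF), the cytokine that holds mouse stem cells undifferentiated, in medium with 7.5% fetal bovine serum, and ES-LIF(-) cells had been without LIF for 48 h. Cardiopoietic cells (CP) and cardiomyocytes (CM) had both received a cocktail with EGF and TGFβ at 2.5 ng/ml, BMP at 5 ng/ml, FGF and VEGF at 10 ng/ml, IGF1 at 50 ng/ml, and IL3, IL6 and IL-13 at 100 ng/ml. Thereafter CP were held for 5 days in 3% serum with 30 ng/ml TNFα, and CM for 9 days in 20% serum, and both were enriched on Percoll density gradients, so that serum, TNFα, time and purification changed together with the stage and cannot be told apart from it. All stages derive from 1 line, and each array holds RNA of a whole cell population, in which fewer cells of a type and less RNA per cell cannot be told apart.

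Marker genes were read before the kinesins. The summed signal of 5 cardiomyocyte genes (Tnnt2, Myh6, Actn2, Myl7, Myl2) was 382 to 537 in ES-LIF(+), 1223 to 1478 in CP and 93668 to 107523 in CM, and that of 5 fibroblast or mesenchyme genes (Dcn, Lox, Col1a1, Col1a2, Col3a1) was 767 to 1091 in ES-LIF(+), 101554 to 109031 in CP and 54757 to 56022 in CM. Relative to ES-LIF(+), both CP and CM thus stood high for the fibroblast or mesenchyme genes, and CM far more than CP for the cardiomyocyte genes. In CP, Tnnt2 (log2 fold change 4.35) and Myl7 (1.80) were higher, and the other 3 cardiomyocyte genes were not called. The summed signal of 4 pluripotent stem cell genes was 44248 to 44969 in ES-LIF(+), 26928 to 27874 in CP and 5341 to 7518 in CM. That of 4 endoderm genes was 132 to 275, 1401 to 1593 and 1122 to 2241 in the same order. In CM the embryonic globin transcripts differed widely between arrays, since the summed signal of 3 primitive erythroid genes ran between 564 and 16139 with replicate 3 highest, and kinesin results that depend on that array are given with and without it. The median signal of an array averaged 106 in ES-LIF(+), 107 in ES-LIF(-), 133 in CP and 137 in CM, although the trimmed mean was nearly the same on all arrays (496.3 to 497). Centring the arrays on their medians lowered the median log2 change of all genes by 0.28 in CP and by 0.32 in CM relative to ES-LIF(+), and kinesin calls that changed with it are given with their centred value.

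Across the 4 stages 29 of the 34 tested kinesins changed by limma's moderated F test at an adjusted p under 0.05, against 73.1% of all tested genes, and the 5 that missed that threshold were Kif16b, Kif17 and Kifc2 of the transport list and Kif6 and Kif12 of the others. The lists differed in direction. Every mitotic kinesin tested changed, and none was called higher in any comparison made, whereas the transport kinesins moved both ways. A gene counts as called below when it passes an adjusted p of 0.05 in limma together with a fold above 1.5, on a log2(signal + 16) scale that understates the change of dim genes.

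Before the signals, the DNA just upstream of some of these genes is shown, because many genes of the late cell cycle carry a pair of short elements there, a CCAAT box and, close to the start, a cell cycle homology region with the letters TTTGAA. RefSeq promoter windows of build GRCm38.p6, covering 250 bases before the start, were at hand for 33 of the 41 kinesins. The 120 bases before the start are printed 5′ to 3′ on the strand of the gene for 4 mitotic kinesins that fell during differentiation and for a pair of transport kinesins that rose, with any CCAAT box (reverse complement ATTGG) and any TTTGAA (reverse complement TTCAAA) in capitals. These genes were picked by hand, as examples and not as a contrast between falling and rising kinesins.
Kif11 (chr19:37376262-37376381, plus strand): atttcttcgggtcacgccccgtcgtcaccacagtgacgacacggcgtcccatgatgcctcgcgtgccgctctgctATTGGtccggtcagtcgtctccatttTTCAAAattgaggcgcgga
Kif22 (chr7:127042421-127042540, minus strand): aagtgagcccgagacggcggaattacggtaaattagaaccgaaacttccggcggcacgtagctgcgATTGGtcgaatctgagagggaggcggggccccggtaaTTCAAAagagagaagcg
Kif18b (chr11:102925125-102925244, minus strand): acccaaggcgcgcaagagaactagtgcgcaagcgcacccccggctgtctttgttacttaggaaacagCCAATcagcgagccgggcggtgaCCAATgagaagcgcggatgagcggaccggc
Kifc1 (chr17:33890634-33890753, minus strand): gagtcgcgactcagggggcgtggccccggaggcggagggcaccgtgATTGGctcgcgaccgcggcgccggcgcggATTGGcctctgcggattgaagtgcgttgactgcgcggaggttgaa
Kif1c (chr11:70700428-70700547, plus strand): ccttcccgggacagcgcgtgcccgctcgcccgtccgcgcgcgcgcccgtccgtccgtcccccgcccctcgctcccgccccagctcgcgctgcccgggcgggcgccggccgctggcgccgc
Kif3b (chr2:153291296-153291415, plus strand): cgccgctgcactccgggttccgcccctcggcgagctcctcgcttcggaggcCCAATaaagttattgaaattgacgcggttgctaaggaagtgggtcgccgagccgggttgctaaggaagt
In Kif11 the letters ATTGG lay 41 to 45 bases and TTCAAA 14 to 19 bases before the start, and Kif22 had the same order, with ATTGG at 50 to 54 and TTCAAA at 12 to 17. Kif18b and Kifc1 held 2 CCAAT boxes each and no TTTGAA within the window, Kif3b held 1 CCAAT box and Kif1c neither motif. Of kinesins not printed, Kif2c and Kif23 also fell. Kif2c held TTCAAA at 98 to 103 bases before the start and no CCAAT, and Kif23 ATTGG at 3 to 7 and no TTTGAA. Kif1b and Kif1a rose in CM. Kif1b held ATTGG, nearest the start at 83 to 87 bases, and Kif1a held TTTGAA at 39 to 44. Over the 250-base windows and both strands, CCAAT stood in 9 of 13 mitotic windows (69.2%), in 4 of 13 transport windows of 11 genes (30.8%) and in 33.8% of all 32851 windows. TTTGAA stood in 5 of the mitotic windows (38.5%), in 1 of the transport windows (7.69%) and in 5252 of all windows. Both motifs together stood in 3 mitotic windows (23.1%), in no transport window and in 5.55% of all. Those 3 were Kif11, Kif22 and Kif14, and in Kif14 TTTGAA lay at 223 to 228 bases, farther out than its CCAAT at 88 to 92. The mitotic windows include those of Kif2b, Kif14, Kif15 and Kifc5b, which were too dim to test. The 11 windows of 9 other kinesins held CCAAT in 4 (36.4%), TTTGAA in 2 and both in 2 (18.2%). Kif26b, which rose, was among the last, with ATTGG at 69 to 73 and TTTGAA at 4 to 9 bases before the start, the same order as in Kif11 and Kif22. The motifs share no letters that could make one match count as the other. These shares describe letters in a window, and no binding was measured.

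Withdrawal of LIF alone gave no call among the mitotic kinesins. None of the 10 was called in ES-LIF(-) against ES-LIF(+), where 3.68% of all tested genes were called lower and 4.0% higher, and their median log2 fold change was -0.08, against 0.03 over all tested genes. In CP 8 of the 10 were lower than in ES-LIF(+) and none was higher, where 13.3% of all tested genes were called lower and 18.7% higher, with a median of -0.90 against 0.04. In CM 9 of the 10 were lower, where 23.9% of all genes were lower and 25.7% higher, with a median of -1.32 against 0.06. Both comparisons share the ES-LIF(+) arrays. CM set directly against CP gave 5 of 10 lower, where 10.4% of all genes were lower and 9.04% higher, with a median of -0.56 against -0.04. The lower counts were 8 in CP and 10 in CM with arrays centred on their medians, 7 and 10 after quantile normalization, and 7 to 8 and 9 to 10 when any 1 array was left out. Averaging all probe sets of a gene gave 5 lower in CP, since Kif2c, Kif18a and Kif20b then missed the threshold.

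**Figure D1:**
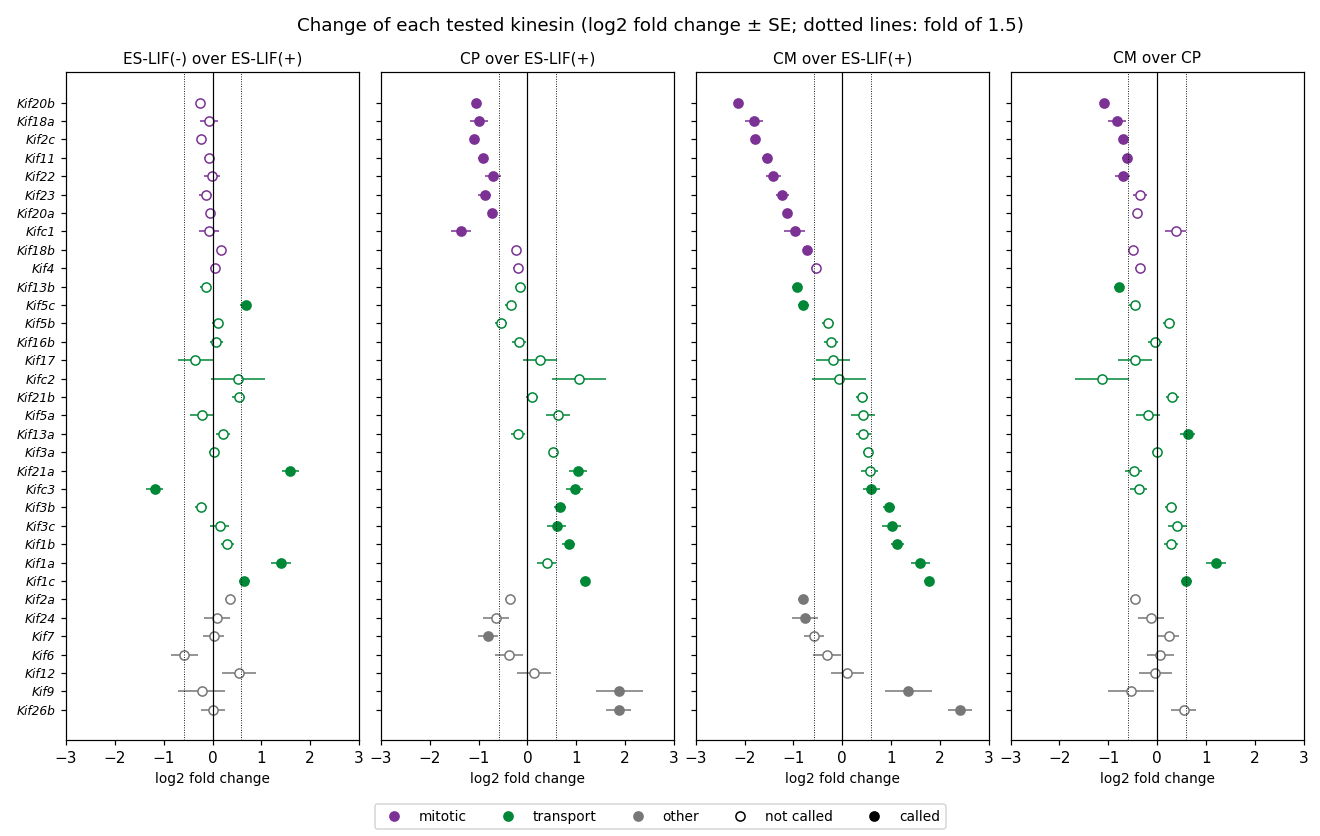
Log2 fold change ± SE of the 34 tested kinesins in 4 comparisons, mitotic kinesins in purple at the top, transport kinesins in green and others in grey. Filled points were called, and dotted lines mark a fold of 1.5. Filled purple points lie left of 0 in each of the 3 panels that have any, 8 in CP and 9 in CM over ES-LIF(+) and 5 in CM over CP, whereas filled green points lie on both sides.

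Motors of the central spindle and of cytokinesis included the kinesin with the largest fall in CM. Kif20b, a kinesin of the midzone needed for the last steps of cytokinesis, gave signals of 2342, 2319 and 2623 in ES-LIF(+), 1922, 2061 and 2106 in ES-LIF(-), 1179, 1157 and 1159 in CP and 514, 559 and 542 in CM. No array of CP reached any array of ES-LIF(-), and no array of CM reached any of CP. In CM its log2 fold change over ES-LIF(+) was -2.14 ± 0.08 (adjusted p = 1.47e-11), a fall of 4.40-fold on this scale and the largest among the kinesins, and in CP it was -1.05 ± 0.08 (adjusted p = 8.89e-08). Its other tested probe set, 1440924_at, was lower in CM too (-1.13) but stood at -0.02 in CP, so the fall at the CP stage rests on 1 of 2 probe sets.

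Kif23, the motor of the centralspindlin complex that bundles midzone microtubules, had signals of 1799, 1731 and 2107 in ES-LIF(+), 1559, 1721 and 1835 in ES-LIF(-), 1137, 1022 and 895 in CP and 839, 635 and 934 in CM. Arrays of both differentiated stages lay below all stem cell arrays, but those of CM and CP overlapped. The change was -1.22 ± 0.13 in CM (adjusted p = 1.4e-06) and -0.88 ± 0.13 in CP (adjusted p = 8.26e-05), and its other probe set agreed in direction at -1.52 and -0.86.

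Kif20a, which brings the chromosomal passenger complex with Aurora B to the midzone, gave 1956, 1829 and 1888 in ES-LIF(+), 1784, 1928 and 1781 in ES-LIF(-), 1204, 1094 and 1134 in CP and 838, 863 and 855 in CM. The 2 stem cell stages overlapped, while CP lay below them and CM below CP without overlap. Log2 fold changes over ES-LIF(+) were -1.13 ± 0.08 in CM (adjusted p = 6.83e-09) and -0.72 ± 0.08 in CP (adjusted p = 2.36e-06). CM against CP gave -0.42, inside the fold threshold.

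Kif11, the bipolar motor that slides antiparallel microtubules apart to separate the poles, had signals of 1514, 1553 and 1439 in ES-LIF(+), 1494, 1370.2 and 1391 in ES-LIF(-), 782, 804 and 778 in CP and 567, 502 and 455 in CM. ES-LIF(-) overlapped ES-LIF(+), and CP and CM formed 2 separate lower steps. Its change was -1.54 ± 0.09 in CM (adjusted p = 2.23e-09), -0.92 ± 0.09 in CP (adjusted p = 1.59e-06) and -0.62 ± 0.09 in CM over CP (adjusted p = 0.00012), the last falling just inside the fold threshold, at -0.55, without CM replicate 3. Probe set 1435306_a_at followed it with -1.89 in CM and -1.19 in CP. The last probe set, 1452315_at, did not: it was lower in ES-LIF(-) (-0.95), not called in CP (-0.13) or CM (-0.52), and higher in CP than in ES-LIF(-) (0.81), where the first fell by 0.83.

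Kif18a, a plus-end motor that dampens chromosome movements and keeps chromosomes near the spindle equator, gave 858, 1155 and 1004 in ES-LIF(+), 843, 937 and 1074 in ES-LIF(-), 543, 431 and 524 in CP and 371, 277 and 200.1 in CM. Replicates of this gene spread more than those of the motors above, yet no CM array reached a CP array and no CP array a stem cell array. The change was -1.80 ± 0.18 in CM (adjusted p = 6.33e-07) and -0.98 ± 0.18 in CP (adjusted p = 0.000466). Kif18b, a related motor of astral microtubule ends, was the late one. Its signals were 1608, 1579.6 and 1707 in ES-LIF(+), 1909, 1813 and 1832 in ES-LIF(-), 1391, 1364 and 1419.9 in CP and 954, 927 and 1073 in CM, so that ES-LIF(-) lay above ES-LIF(+) and only CM was called, at -0.72 ± 0.08 (adjusted p = 1.31e-06), against -0.23 ± 0.08 in CP.

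Kif2c, which strips tubulin from microtubule ends at centromeres and so corrects faulty attachments, gave 3194, 3117 and 3223 in ES-LIF(+), 2593, 2797 and 2690.2 in ES-LIF(-), 1487, 1478 and 1475 in CP and 875, 848 and 1013 in CM. The 4 stages formed 4 separate steps downward, with the CP arrays close together. Changes were -1.79 ± 0.08 in CM (adjusted p = 7.01e-11) and -1.09 ± 0.08 in CP (adjusted p = 3.81e-08). Probe set 1449060_at was also lower in both (-1.25 and -0.73), while 1454221_a_at (-0.46 and -0.06) and 1432392_at (-0.06 and -0.09) were not called.

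**Figure D2:**
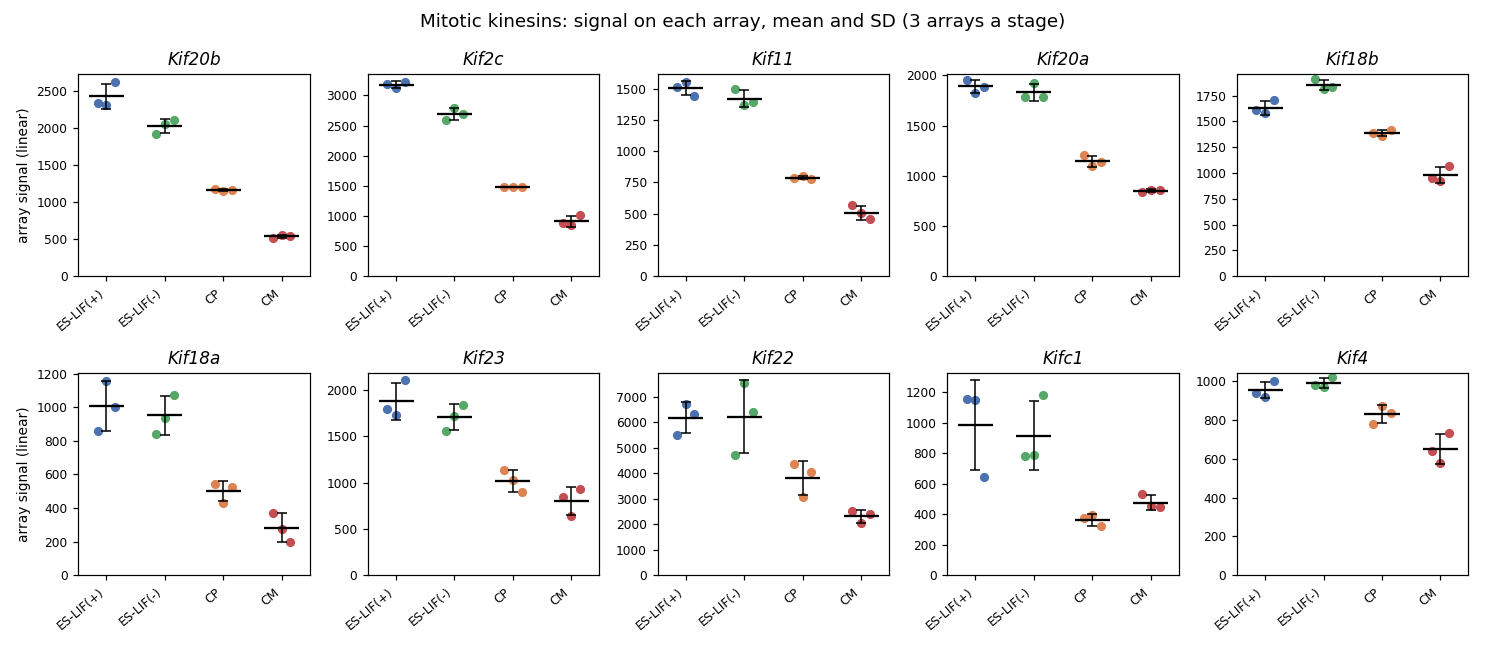
Linear array signal of the 10 tested mitotic kinesins on each of the 12 arrays (points), with the stage mean (bar) and SD (whiskers, n = 3), stages from left to right in order of differentiation and each axis from 0. In every panel except that of Kifc1 the CM mean is the lowest of the 4, and Kifc1 is lowest in CP.

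The remaining mitotic members were motors of chromosome arms and of the spindle's minus ends. Kif22, a chromokinesin that pushes chromosome arms outward, averaged 6177 ± 607 in ES-LIF(+), 6218 ± 1419.8 in ES-LIF(-), 3817 ± 668 in CP and 2319 ± 255 in CM (SD, n = 3). It was called in CM (log2 fold change -1.41 ± 0.16, adjusted p = 1.55e-06) and in CP (log2 fold change -0.70 ± 0.16, adjusted p = 0.00179), though the CP call was lost without CP replicate 2 (-0.55), and all 3 of its tested probe sets were lower in both stages. Kifc1, a minus-end motor that focuses spindle poles, averaged 983 ± 295 in ES-LIF(+), 916 ± 229 in ES-LIF(-), 363 ± 38.3 in CP and 477 ± 48.9 in CM. It was the one tested mitotic kinesin with a lower mean in CP than in CM, at -1.36 and -0.98 over ES-LIF(+), and the difference between CM and CP was not called (0.38 ± 0.21). Its probe set carries the suffix of sets that can bind several transcripts, and Kifc5b is a near copy, so their signals may be mixed. Kif4, a chromokinesin that works with Prc1 at the midzone, had an adjusted p of 0.000233 in CM but a change of -0.54 ± 0.10, inside the fold threshold, which it passed where arrays were centred on the median (-0.86), quantile normalized (-0.64) or taken without CM replicate 3 (-0.63). Among the dim members, Kif14 averaged 45.0 ± 6.24 in ES-LIF(+), 19.7 ± 10.5 in ES-LIF(-), 10.9 ± 5.67 in CP and 10.7 ± 6.26 in CM, Kif15 60.3 ± 49.0 in ES-LIF(+), 46.1 ± 14.7 in ES-LIF(-), 75.1 ± 62.7 in CP and 92.2 ± 25.2 in CM, Kifc5b 94.0 ± 26.3 in ES-LIF(+), 75.5 ± 51.7 in ES-LIF(-), 55.2 ± 22.5 in CP and 20.6 ± 22.8 in CM and Kif2b 4.97 ± 2.3 in ES-LIF(+), 7.37 ± 9.64 in ES-LIF(-), 16.7 ± 7.25 in CP and 5.6 ± 3.08 in CM. These signals exceeded the array median on fewer than 3 arrays each and were not tested.

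Proteins that work with these motors were taken from a list of 16 spindle and midzone partners. Against ES-LIF(+), 1 of 16 was lower in ES-LIF(-), 13 in CP and all 16 in CM, and 4 were lower in CM over CP, where 3.68%, 13.3%, 23.9% and 10.4% of all tested genes were lower in the same order. Medians were -0.09, -0.75, -1.21 and -0.47, and none was higher in any of these. Ect2, a cytokinesis factor that centralspindlin recruits to the cleavage site, averaged 4251 ± 47.7 in ES-LIF(+), 3796 ± 312 in ES-LIF(-), 1921 ± 122 in CP and 853 ± 35.6 in CM, a change of -2.30 ± 0.08 in CM (adjusted p = 5.59e-12). Incenp, the scaffold of the chromosomal passenger complex, changed by -2.07 in CM and -1.11 in CP, and Anln, which ties actin and myosin to the contractile ring, by -1.55 and -1.06. Cep55, a midbody protein of the final cut between daughter cells, was the single partner lower already in ES-LIF(-) (log2 fold change -1.08 ± 0.13, adjusted p = 7.16e-05), and stood at -2.09 in CM.

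General proliferation genes were set beside them. Of the 4 measured (Mki67, Top2a, Cdk1, Pcna), none was lower in ES-LIF(-), 1 in CP and all 4 in CM, beside 3.68%, 13.3% and 23.9% of all tested genes, with medians of 0.07, -0.54 and -1.06. Their summed signal was 38170 to 40489 in ES-LIF(+), 40512 to 41475 in ES-LIF(-), 29199 to 30307 in CP and 17886 to 21112 in CM. The share of dividing cells was not measured on these arrays, and its part in the change of the mitotic kinesins was not tested.

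Transport kinesins showed no common direction. In ES-LIF(-) 4 of 17 were higher and 1 lower than in ES-LIF(+), where 4.0% of all tested genes were higher and 3.68% lower. In CP 6 were higher and none lower, beside 18.7% and 13.3% of all genes. In CM 6 were higher and 2 lower, beside 25.7% and 23.9%. There 9 of 17 were not called, beside 6627 of all 13145 tested genes, so the share called in CM was close to that of all genes. Medians were 0.15, 0.53 and 0.43. CM over CP gave 3 higher and 1 lower, where 9.04% of all tested genes were higher and 10.4% lower, with a median of 0.00. The 6 higher in CP were Kif1c, Kifc3, Kif3b, Kif21a, Kif1b and Kif3c, and the 6 higher in CM were Kif1c, Kifc3, Kif3b, Kif1a, Kif1b and Kif3c, so 5 genes were common to both lists, which share their ES-LIF(+) arrays. These counts depended on the scaling. Centred on array medians, CP had 3 higher (Kif1c, Kifc3, Kif21a) and 2 lower (Kif5b, Kif5c), and CM had 5 higher and 3 lower.

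Motors of the kinesin-3 group, which carry vesicles and organelles, held the 3 largest rises of the transport list in CM. Kif1c, a vesicle motor of many cell types, gave 598, 637 and 738 in ES-LIF(+), 1082, 955 and 1084 in ES-LIF(-), 1549, 1399.7 and 1564 in CP and 2337, 2549 and 2019 in CM. Its arrays climbed through 4 stages without overlap. The change was 0.65 ± 0.11 in ES-LIF(-) (adjusted p = 0.000956), 1.18 ± 0.11 in CP (adjusted p = 4.95e-07) and 1.78 ± 0.11 in CM (adjusted p = 1.98e-09), while CM over CP, at 0.60 ± 0.11, lost its call without CM replicate 2 (0.53) or CP replicate 2 (0.55) and after median centring (0.57). Of its 3 other tested probe sets, 2 were higher in CP and CM and 1426325_at was not (0.33 and -0.15). None of these 3 was called in ES-LIF(-) or in CM over CP, so those calls rest on 1 probe set. Averaged over its probe sets, Kif1c stood at 0.30 in ES-LIF(-) and 0.26 in CM over CP, neither called.

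Kif1b, whose forms carry mitochondria and synaptic vesicle precursors, gave 661, 835 and 679 in ES-LIF(+), 799.8, 994 and 897 in ES-LIF(-), 1164, 1245 and 1538 in CP and 1695, 1776 and 1347 in CM. CP and CM lay above all stem cell arrays and overlapped each other. It changed by 1.13 ± 0.14 in CM (adjusted p = 3.74e-06) and 0.84 ± 0.14 in CP (adjusted p = 0.000128). Of its 6 other tested probe sets 5 were also higher in CP, so this rise was seen along most of the transcript's probe sets, although the CP value of the first was 0.56 with arrays centred on their medians.

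Kif1a, the axonal motor of synaptic vesicle precursors, followed a different course, with 232, 304 and 160.2 in ES-LIF(+), 767, 556 and 555 in ES-LIF(-), 335, 324 and 248 in CP and 756, 722 and 669.7 in CM. ES-LIF(-) and CM stood high, ES-LIF(+) and CP low and overlapping. Accordingly it was higher in ES-LIF(-) (log2 fold change 1.40 ± 0.20, adjusted p = 0.000326), not called in CP (0.39 ± 0.20), and higher in CM (log2 fold change 1.60 ± 0.20, adjusted p = 5.36e-06) also relative to CP (log2 fold change 1.21 ± 0.20, adjusted p = 0.000287). The second probe set, 1450108_at, gave 1.09, 0.52, 1.75 and 1.23 in these comparisons, called in the same ones. Neuronal markers were read beside it. Their sum over 7 genes, most of it Stmn2, was 8813 to 9708 in ES-LIF(+), 4383 to 4606 in ES-LIF(-), 3939 to 4284 in CP and 2634 to 2818 in CM, and of the 5 tested none was higher in ES-LIF(-) or CM than in ES-LIF(+), while Dcx and Snap25 were too dim to test. In CM over CP, where Kif1a was higher, Map2 was called higher too (0.63) and Tubb3 was at 0.53, inside the fold threshold. Their part in the change of Kif1a was not tested.

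Kif13b, a kinesin-3 that carries membrane scaffold proteins, was the exception within its group, with 873, 776 and 918 in ES-LIF(+), 802, 774 and 739 in ES-LIF(-), 769, 769 and 779 in CP and 409, 426 and 498 in CM. The first 3 stages overlapped, and CM lay apart below them. It was lower in CM than in ES-LIF(+) (log2 fold change -0.92 ± 0.11, adjusted p = 1.99e-06) and than in CP (log2 fold change -0.78 ± 0.11, adjusted p = 4.51e-05). Its relative Kif13a, which moves cargo between the Golgi and endosomes, was instead higher in CM than in CP (log2 fold change 0.63 ± 0.15, adjusted p = 0.00414), a call lost without CM replicate 2 (0.57) or CP replicate 3 (0.56) although 3 of its 4 other tested probe sets made it too. Kif16b, an endosome motor, was not called anywhere (-0.22 in CM, -0.18 in CP).

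**Figure D3:**
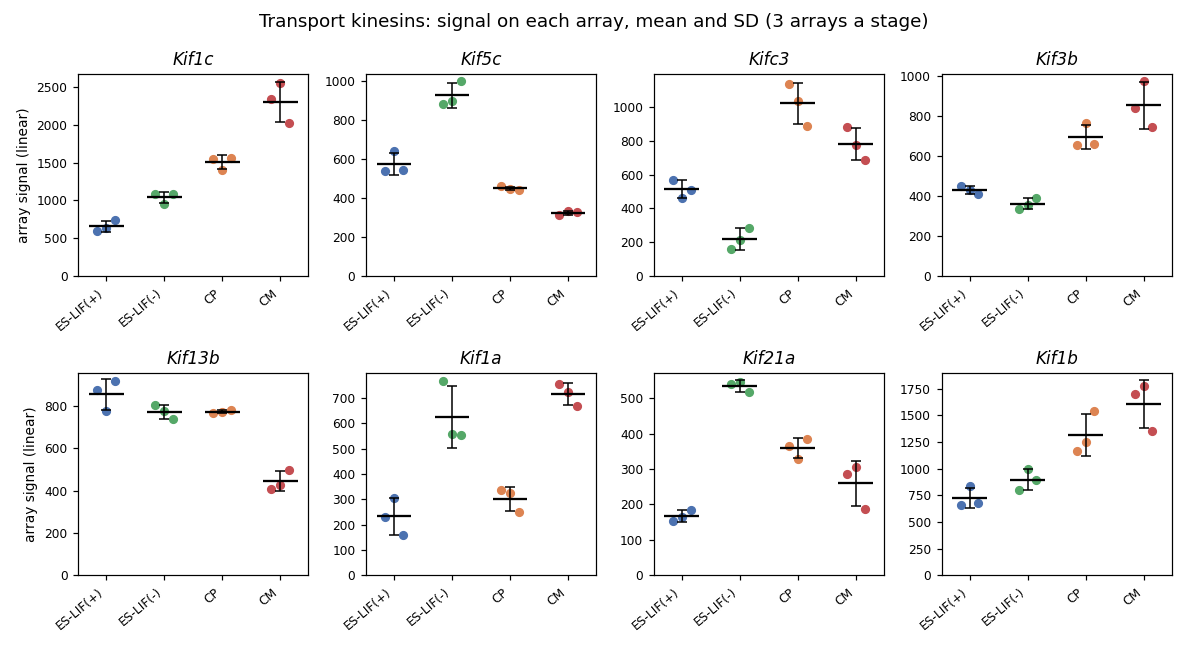
Linear array signal of the 8 transport kinesins with the smallest F-test p on each of the 12 arrays (points), with the stage mean (bar) and SD (whiskers, n = 3), each axis from 0. Kif1c, Kif1b and Kif3b are highest in CM, Kif5c and Kif21a in ES-LIF(-), Kifc3 in CP, and Kif13b is lowest in CM.

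Conventional kinesin, the general carrier of vesicles and mitochondria, is built from Kif5 heavy chains. Kif5c, the neuron-enriched heavy chain, gave 540.2, 642 and 541 in ES-LIF(+), 883, 895 and 999.9 in ES-LIF(-), 461, 446 and 442 in CP and 311, 333 and 327 in CM. Each stage lay clear of its neighbours, with ES-LIF(-) at the top and CM at the bottom. It was higher in ES-LIF(-) (log2 fold change 0.68 ± 0.11, adjusted p = 0.000946) and lower in CM (log2 fold change -0.79 ± 0.11, adjusted p = 1.66e-05), with -0.34 ± 0.11 in CP, which was inside the fold threshold but called lower after median centring (-0.62). Kif5b, the heavy chain of most tissues, averaged 2818 ± 244 in ES-LIF(+), 3054 ± 548 in ES-LIF(-), 1924 ± 82.0 in CP and 2301 ± 290.0 in CM and was not called against ES-LIF(+) (-0.29 in CM, -0.54 in CP), though it was lower in both after median centring (-0.61 and -0.83) and in CP without ES-LIF(+) replicate 2 (-0.59). Its 5 tested probe sets went apart, however, with 1418427_at and 1418431_at higher in CM (0.61 and 0.90) and 1418428_at lower (-0.64), so no direction is given for the gene. Kif5a, the neuronal heavy chain, changed by 0.62 ± 0.25 in CP (adjusted p = 0.0527) and 0.43 ± 0.25 in CM, neither called, and its other probe set was lower in CM (-1.25).

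Kinesin-2 motors power transport into cilia as well as vesicle traffic, with Kif3a and Kif3b as partners in 1 motor. Kif3b gave 449.7, 432 and 409 in ES-LIF(+), 337, 355 and 391 in ES-LIF(-), 657, 764 and 662 in CP and 839.7, 977 and 743 in CM, with CP and CM above both stem cell stages and overlapping each other. It was higher in CM (log2 fold change 0.95 ± 0.12, adjusted p = 7.36e-06) and in CP (log2 fold change 0.67 ± 0.12, adjusted p = 0.000394), the CP call being lost after median centring (0.38) and quantile normalization (0.49). Kif3a changed by 0.53 ± 0.10 in CM and 0.53 ± 0.10 in CP, with adjusted p of 0.000213 and 0.000363 but a fold under 1.5 in each. Kif3c, another subunit of this group, was higher in CM (log2 fold change 1.01 ± 0.20, adjusted p = 0.000363) and in CP (log2 fold change 0.60 ± 0.20, adjusted p = 0.0208). In CP its arrays overlapped those of ES-LIF(+), and the call was lost without CP replicate 2 (0.48), CP replicate 3 (0.50) or ES-LIF(+) replicate 1 (0.42), and after median centring (0.31). Its other tested probe set, 1434947_at, was called in neither stage (0.24 in CM, 0.16 in CP), so both calls rest on 1 of 2 probe sets. Averaged over its probe sets, Kif3c stood at 0.38 in CP, not called. Kif17, a homodimeric motor of this group, was not called on the probe set standing for it (-0.19 in CM, 0.26 in CP). Its other tested probe set, 1419827_s_at, was called higher in CP than in ES-LIF(+) (limma, adjusted p = 0.0202). That probe set was also higher in CP than in ES-LIF(-) (limma, adjusted p = 0.0353), and it was not called in CM over ES-LIF(+). The absence of a Kif17 call in CP thus rests on 1 of 2 probe sets.

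Kifc3, a minus-end motor of epithelial transport and adherens junctions, turned most sharply, with 568, 462 and 507 in ES-LIF(+), 162, 212 and 287 in ES-LIF(-), 1135, 1034 and 889 in CP and 879, 777 and 686 in CM. The 3 ES-LIF(-) arrays lay lowest and the CP arrays highest, without overlap between any of the 4 stages. It was lower in ES-LIF(-) (log2 fold change -1.19 ± 0.17, adjusted p = 0.000375) and higher in CP (log2 fold change 0.97 ± 0.17, adjusted p = 0.000306). Its CM value of 0.59 ± 0.17 (adjusted p = 0.00822) sat at the threshold and was lost without CM replicate 1 (0.50) or ES-LIF(+) replicate 2 (0.52), and after median centring (0.27).

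Kif21a, a kinesin-4 that restrains microtubule growth, was the transport kinesin with the largest rise on LIF withdrawal, with 152, 164 and 186 in ES-LIF(+), 542, 547 and 517 in ES-LIF(-), 366, 329 and 384 in CP and 287, 305 and 186 in CM. ES-LIF(-) stood clear above the other stages and CP second, whereas CM replicate 3 came down to the height of ES-LIF(+) replicate 3. It was higher in ES-LIF(-) (log2 fold change 1.59 ± 0.18, adjusted p = 2.92e-05) and in CP (log2 fold change 1.04 ± 0.18, adjusted p = 0.000191), and in CM it was 0.56 ± 0.18, or 0.77 and called without CM replicate 3. Probe set 1455029_at was also higher in ES-LIF(-) (1.42) but not in CP (0.03). In CM it stood at -0.45, not called and of the opposite sign to the first. Kif21b, the close relative of Kif21a, changed by 0.53 ± 0.13 in ES-LIF(-), inside the fold threshold. Kifc2, a minus-end motor of neurons, changed by 1.06 ± 0.56 in CP, not called and with replicates far apart. Its other tested probe set, 1421312_a_at, went the other way in CP (-1.02, not called). Against ES-LIF(-) that probe set was lower in CP (-1.89), where the one standing for the gene was not called (0.53).

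**Figure D4:**
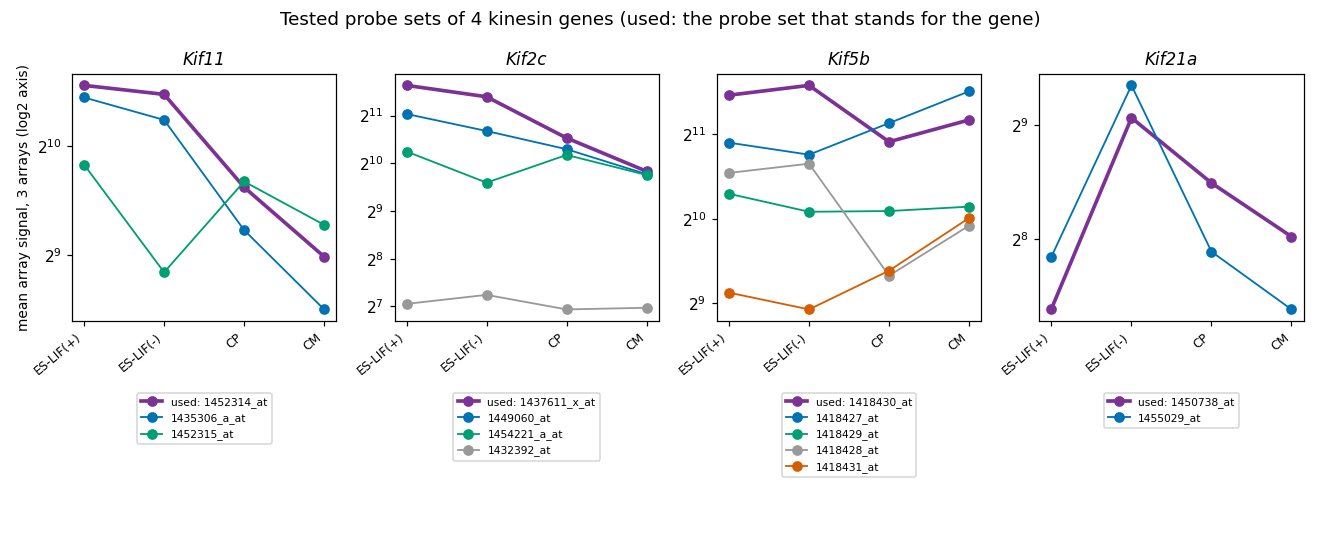
Mean signal of 3 arrays at each stage on a log2 axis for every tested probe set of Kif11, Kif2c, Kif5b and Kif21a, the probe set that stands for the gene in purple. The second Kif11 probe set falls with the first while 1452315_at does not, the Kif5b probe sets cross, and both Kif21a probe sets peak in ES-LIF(-).

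CP was also compared with ES-LIF(-), a choice made after the data had been seen, to set the cocktail stage beside cells already without LIF. There 8 of 10 mitotic kinesins were lower and none higher, where 14.5% of all tested genes were lower and 18.2% higher, with a median of -0.77 against 0.01. Of the 17 transport kinesins 3 were higher (Kifc3, Kif3b and Kif5a) and 3 lower (Kif1a, Kif5b and Kif5c). Each call is that of the probe set standing for the gene. For Kif5b 1 other tested probe set was lower and 3 were not called, so again no direction is given for the gene. The other tested probe sets of Kif1a (-0.57) and Kif5a (0.17) were not called, whereas all 3 of Kif3b were higher. With arrays centred on their medians 9 mitotic kinesins were lower, Kif18b being added (-0.68), and transport kinesins had 2 higher, since Kif5a lost its call (0.57), and 6 lower, since Kif13a (-0.67), Kif21a (-0.82) and Kif21b (-0.70) gained one. Averaging all probe sets of a gene left 3 mitotic kinesins lower, with Kif2c, Kif11, Kif18a, Kif20b and Kif23 not called. Among transport kinesins the averages lost Kif5b (-0.23) and left Kif5a and Kif5c untested. They added Kif1b (0.64) and Kif1c (0.64) as higher and Kif21a (-0.97) as lower. On the probe sets standing for the genes, Kifc3 had the largest change of the family between CP and ES-LIF(-) (log2 fold change 2.16 ± 0.17, adjusted p = 1.33e-07). Among genes called here on their own probe set, 3 had another tested probe set called the opposite way, namely Kif11, Kif20b and Kif2a, whereas in the other 4 comparisons none did.

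Light chains and cargo adaptors link these motors to their loads. Of 14 measured, none was higher in ES-LIF(-), 3 in CP and 5 in CM relative to ES-LIF(+), where 4.0%, 18.7% and 25.7% of all tested genes were higher, so that the share in CP was close to that of all genes. Medians were 0.04, 0.18 and 0.26, and the single one called lower was Trak1, a mitochondrial adaptor, in ES-LIF(-) (-0.65). Klc1, the light chain that couples Kif5 motors to cargo, averaged 471 ± 20.9 in ES-LIF(+), 500.3 ± 25.2 in ES-LIF(-), 1220.2 ± 194 in CP and 1136 ± 249 in CM, a change of 1.22 ± 0.15 in CM (adjusted p = 4.52e-06) and 1.33 ± 0.15 in CP (adjusted p = 4.26e-06). Kidins220, a membrane scaffold and cargo of Kif5, was at 1.04 in CM and 1.02 in CP, and Fez1, an adaptor of Kif5, averaged 267 ± 85.5 in ES-LIF(+), 204 ± 54.9 in ES-LIF(-), 934 ± 82.1 in CP and 531 ± 14.0 in CM. Mapk8ip3, a scaffold between kinesin-1 and its cargo, was called in CM alone (1.11). Intraflagellar transport genes have products that ride on kinesin-2. Of 12 tested, Ift122 was higher in CM (1.01) and CP (0.64), Ift88 lower in CM (-0.67), and the other 10 were not called in either. Among all tested genes 25.7% were higher and 23.9% lower in CM, and 18.7% and 13.3% in CP. None of the 12 was called in ES-LIF(-), where these shares were 4.0% and 3.68%.

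Among kinesins of other roles 2 of 7 were higher and 1 lower in CP, 2 were higher and 2 lower in CM, and none was called in ES-LIF(-) or in CM over CP, counts near the shares of all tested genes (18.7% higher and 13.3% lower in CP, 25.7% and 23.9% in CM). Kif26b, a motor-like protein without ATPase activity that acts in cell adhesion and kidney formation, had the largest rise of the family in CM, with 139.9, 136 and 97.5 in ES-LIF(+), 70.2, 135 and 194 in ES-LIF(-), 486, 485 and 505 in CP and 773, 771 and 640.1 in CM. The stem cell stages overlapped far below CP, and all CM arrays lay above those of CP. The change was 2.41 ± 0.25 in CM (adjusted p = 8.44e-07) and 1.87 ± 0.25 in CP (adjusted p = 2.57e-05). All 5 fibroblast or mesenchyme markers also rose in CP and CM, with sums as given above, and 3 of the 5 were lower in CM than in CP, where Kif26b gave 0.55 ± 0.25 and was not called. Their part in its rise was not tested.

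Kif9, a kinesin of motile cilia and sperm tails, gave 17.4, 116 and 15.5 in ES-LIF(+), 27.1, 38.3 and 21.4 in ES-LIF(-), 158, 174 and 196 in CP and 105, 87.5 and 168 in CM. CP stood clear above ES-LIF(+) (log2 fold change 1.88 ± 0.48, adjusted p = 0.00458), while CM overlapped it through ES-LIF(+) replicate 2. The CM call (log2 fold change 1.35 ± 0.48, adjusted p = 0.0236) was lost without CM replicate 3 (1.11), without either replicate 1 or 3 of ES-LIF(+) (1.03 and 0.99), and after median centring (1.03). No multiciliated cell marker was called higher in CP or CM. Of the 3 tested, Tekt1 was lower in both (-0.82 in CP and -1.76 in CM). Rsph1 was lower in CM (-1.27) and not called in CP (-1.10). Foxj1 was above 0 in both but not called (0.68 in CP and 0.09 in CM), and Dnah5 was too dim to test. Their part in the change of Kif9 was not tested.

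Kif2a, which depolymerizes microtubules at spindle poles and in growing neurites, gave 2096, 2204 and 1758 in ES-LIF(+), 2550, 2524 and 2654 in ES-LIF(-), 1736, 1534 and 1433 in CP and 1171, 1228 and 1038 in CM. The stages did not overlap, and ES-LIF(-) was the highest. It was lower in CM (log2 fold change -0.81 ± 0.10, adjusted p = 5.23e-06) and not called in CP (-0.36 ± 0.10) except after median centring (-0.64), while its probe set 1454107_a_at was higher in CP (0.91). Averaged over its probe sets the CM value was -0.22 and not called.

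Kif7, a ciliary regulator of Hedgehog signalling through the Gli factors, gave 342, 276 and 334 in ES-LIF(+), 298, 319 and 347 in ES-LIF(-), 181, 141 and 203 in CP and 159.7, 192 and 285 in CM, and was lower in CP (log2 fold change -0.81 ± 0.21, adjusted p = 0.00485) without overlap. CM overlapped ES-LIF(+) through replicate 3 and was just under the fold threshold (-0.58 ± 0.21), but it was called lower without CM replicate 3 (-0.79) or ES-LIF(+) replicate 2 (-0.67) and after median centring (-0.89). Kif24, a depolymerase of the mother centriole, gave 295, 279.5 and 218 in ES-LIF(+), 236, 321 and 297 in ES-LIF(-), 207, 169 and 122 in CP and 90.0, 178 and 196 in CM. It was called lower in CM (log2 fold change -0.77 ± 0.27, adjusted p = 0.0214), a call lost without CM replicate 1 (-0.46) or without either replicate 1 or 2 of ES-LIF(+) (-0.69 and -0.72). In CP it was at -0.64 ± 0.27 and not called, but it was called lower after median centring (-0.92) and without CP replicate 1 (-0.80) or CM replicate 1. Kif6 and Kif12 were not called in any comparison, and Kif26a, Kif27 and Kif28 had stage means between 2.87 and 57.8.

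**Figure D5:**
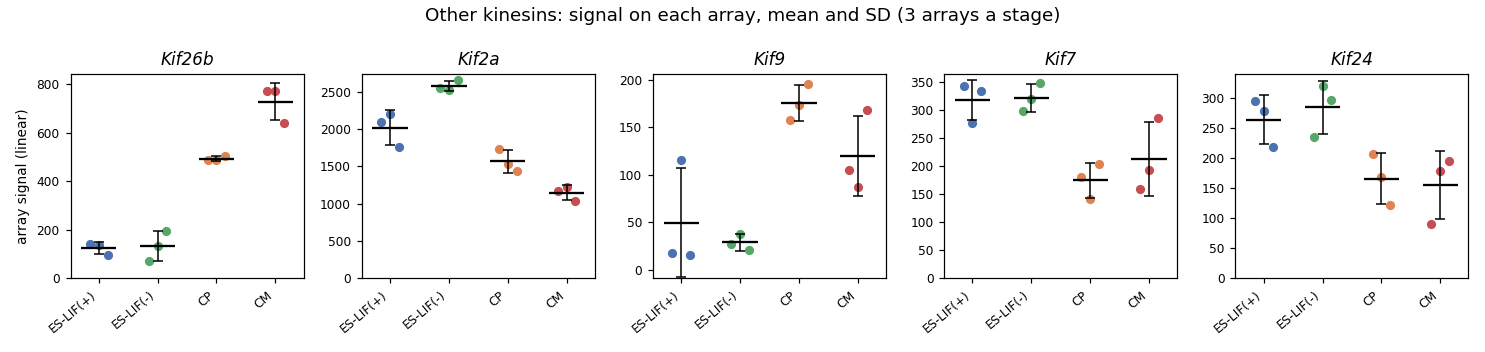
Linear array signal of the 5 kinesins of other roles with the smallest F-test p on each of the 12 arrays (points), with the stage mean (bar) and SD (whiskers, n = 3). Kif26b rises through CP to CM, Kif9 is highest in CP, and Kif2a falls to its lowest in CM.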

How the data were processed

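Signals of 12 GeneChip Mouse Genome 430 2.0 arrays were taken as deposited by the authors, who list MAS5 as their software, and every array holds an intensity per probe set on a linear scale that is already scaled between arrays. Genome build and annotation version were not given in the sources used here, and symbols came from GEO's platform annotation. Of 45101 probe sets, 64 controls were left out and 26083, those above the array median on at least 3 arrays, were tested as log2(signal + 16) with limma 3.58.1 in R 4.3.3 (lmFit, eBayes with an intensity trend), 1 fit over all stages with Benjamini-Hochberg adjustment over all tested probe sets. The procedure was tested on simulated data, in which 34 of 67 probe sets changed 2-fold, 51 of 67 changed 3-fold and 55 of 66 changed 4-fold were called in CM over CP, with 9 of 25883 unchanged ones. Nearly all simulated probe sets were thus unchanged, whereas 68.7% of those tested on the arrays passed the F test. These shares therefore do not measure the recovery in the actual fit. Precision is limited by 3 arrays a stage, which the study describes as independently sampled. Signals were compared between stages only, never between probe sets.

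Kinesins and lists were chosen with earlier results of these data known. Values on every array are given for Kif11, Kif20a, Kif23 and Kif2c, for the 6 mitotic, 8 transport and 5 other tested kinesins with the smallest F-test p, and for any transport kinesin lower in CM, and up to 4 called genes with the largest change in CM are named of each accompanying list. Other genes named singly were picked with their values in view. The alternatives tried were another array scaling, pseudocount, filter, trend, test or threshold, other arrays in the fit, another way to go from probe sets to genes, leave-one-out fits and a block on the replicate number.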

Additional observations from a re-analysis of the deposited data

How the results depend on the processing

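No kinesin call reversed its direction under any alternative tried. Apart from averaging, however, these do not show what a gene's other probe sets give, since choosing them by linear signal left all 170 single-gene calls the same. In CP over ES-LIF(-) Kif11, Kif20b and Kif2a each had another tested probe set called the opposite way. With arrays centred on their medians, the transport kinesins had 3 higher and 2 lower in CP over ES-LIF(+), and 6 lower in CP over ES-LIF(-), and the same 3, 2 and 6 when genes also had to exceed the median on all 12 arrays (an alternative chosen after seeing the data). Over all genes, 58.4% of calls in CP over ES-LIF(+) were higher, against 30.6% after centring and 46.8% after quantile normalization, and in CM over ES-LIF(+) 51.7%, against 33.2% and 43.6%. Without a fold threshold, transport kinesins had 2 lower in CP and 10 higher in CM over ES-LIF(+), 2 lower in CM over CP, and 6 lower and 6 higher in CP over ES-LIF(-), and 8 mitotic kinesins were lower in CM over CP. With a fold above 2, mitotic kinesins had 3 lower in CP over ES-LIF(+), 1 in CM over CP and 1 in CP over ES-LIF(-), and transport kinesins had 2 higher in ES-LIF(-) and 2 in CP over ES-LIF(+), 1 higher in CM over CP and 1 in CP over ES-LIF(-), and 0 lower in CM over ES-LIF(+) and 0 in CM over CP. Averaging a gene's probe sets, after which 10 mitotic and 12 transport kinesins passed the filter, with Kif5a, Kif5c, Kif13b, Kif17 and Kif21b left untested, gave 5 mitotic kinesins lower in CP over ES-LIF(+), 3 in CM over CP and 3 in CP over ES-LIF(-), and transport kinesins 2 higher in ES-LIF(-), 1 higher and 0 lower in CM over CP, and 0 lower in CM over ES-LIF(+). Leaving out each array in turn, the kinesins changed across stages numbered 28 to 29. The mitotic lower counts were 0 in ES-LIF(-), 7 to 8 in CP, 9 to 10 in CM, 4 to 5 in CM over CP and 7 to 8 in CP over ES-LIF(-), and the higher counts 0 throughout. The transport higher counts were 4 to 5, 5 to 7, 5 to 8, 1 to 3 and 3 to 5 in the same order, the 1 arising without CM replicate 2 and the 5 without CP replicate 1, and the lower counts 1, 0 to 1, 2, 1 to 2 and 2 to 4, with 1 lower in CP only without ES-LIF(+) replicate 2 and 2 in CM over CP without CP replicate 2, CM replicate 1 or CM replicate 2. Replicate numbers did not pair the arrays (18 same-numbered pairs, correlations of deviations -0.05 to 0.10), and with the replicate number as a block 169 of 170 single-gene calls were the same, 29 kinesins changed across stages and Kif5a became higher in CP. Pseudocount, dim-signal filter, intensity trend, the variance analysis named in the study's methods, a fit of only the 2 stages compared and choosing probe sets by linear signal kept each mitotic and transport count within 1.5 times. Among other kinesins, Kif24 was called in CP (-0.64) and Kif9 was not called in CM (adjusted p = 0.0575) when only the 2 stages compared were fitted, and the variance analysis lost Kif24 in CM (adjusted p = 0.0591). Where values moved, the cause was not tested. With 3 arrays a stage, an uncalled kinesin may still have changed. In the simulation 34 of 67 2-fold changes were called, but far fewer probe sets changed there than in these data. That share therefore does not measure the recovery here.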

Other observations

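Cytoplasmic dynein carries cargo toward microtubule minus ends, opposite to most kinesins, and dynactin is its cofactor. Of 14 dynein and dynactin genes measured, none was called in ES-LIF(-), 3 were higher in CP and 4 in CM relative to ES-LIF(+), where 18.7% and 25.7% of all tested genes were higher in CP and CM, shares close to those of this list. None was lower in these comparisons, with medians of -0.18, 0.13 and 0.27. Dynlt3, a dynein light chain, averaged 465 ± 146 in ES-LIF(+), 408 ± 65.8 in ES-LIF(-), 1734 ± 82.7 in CP and 3236 ± 351 in CM (SD, n = 3), a change of 2.80 ± 0.18 in CM (limma, adjusted p = 4.07e-09) and 1.91 ± 0.18 in CP (adjusted p = 7.11e-07). Dync1li2, a light intermediate chain that binds cargo adaptors, changed by 1.51 ± 0.09 in CM and 1.12 ± 0.09 in CP, and Dync1li1 by 0.66 and 0.62. Dync1i1, an intermediate chain known best from neurons, was called in CM alone (1.62 ± 0.28, adjusted p = 0.00011), with signals of 371, 293 and 317 in CM against 92.4, 108 and 86.0 in ES-LIF(+). The heavy chain Dync1h1 was not called in CM (-0.13) or CP (-0.13), and none of the 6 dynactin genes was called.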
